A study of Mus musculus with 6 samples.

Results

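The genes described here are 46 genes of DNA replication and S phase, chosen as a list of symbols without reference to a threshold on the measured values. All 46 were found by their gene name on the array, and all 46 were among the 21862 genes tested. RNA was measured on 6 Agilent 1-colour mouse arrays, 2 for each of 3 cultures of bone marrow (BM) cells. 6G- BM-MDSC were grown for 4 days with 40 ng/mL GM-CSF from BM from which Ly-6G+ cells had been removed with anti-Ly-6G beads. MDSC (conv.) were grown in the same way for 4 days with 40 ng/mL GM-CSF from whole BM. DCs were grown from BM for 8 days with 20 ng/mL GM-CSF in dishes not treated for tissue culture. All cultures came from female C57BL/6J mice aged 6 to 8 weeks, and RNA came from whole cultures that were not sorted, so 6G- BM-MDSC still hold cells that gained Ly-6G during the culture. MDSC, or myeloid-derived suppressor cells, are immature myeloid cells that restrain T cells, and GM-CSF is a growth factor that drives marrow progenitors to divide and become myeloid cells.

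Before a cell divides it copies its genome once. In G1 the origin recognition complex, Cdc6 and Cdt1 load the MCM helicase onto origins. At the start of S phase Cdc45 and the GINS complex turn that helicase on, polymerase alpha with primase lays down primers, polymerases epsilon and delta extend them on the PCNA clamp, and flap endonuclease and ligase seal the fragments. Many of these genes are switched on together by E2F factors once cyclin-dependent kinases have inactivated RB, and their mRNAs are hallmarks of dividing myeloid progenitors that fade as neutrophils mature.

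Signal is given as the log2 of the processed intensity minus the 75th percentile of that array, so 0 is the 75th percentile of all probes, and each gene is represented by its brightest probe. Values of different genes are not comparable with each other on this scale. Differences are in log2 units with the standard error (SE) of a limma fit over all 6 arrays, and p-values were adjusted by Benjamini-Hochberg over all 21862 genes, with a call at 0.05. Replicate arrays correlated at 0.995 to 0.996 across genes, no spot was saturated, and 55.6% to 59.92% of probes per array were well above background. The labels do not say whether the 2 samples of a group were separate cultures or mice, so p-values measure only the spread between these samples, and 2 arrays a group limit the precision. Both MDSC groups lay in one row of the slide and DCs in the other, so array row, days of culture, GM-CSF dose, dish type and cell type cannot be told apart in any comparison with DCs, and both such comparisons share the same DC arrays. In whole cultures, fewer cells of a type and less RNA per cell cannot be told apart either.

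The replication genes differed little between the 3 cultures. Of the 46, 45 were well above background on all 6 arrays. The exception was Ccne2, which was above background on the 4 MDSC arrays and on neither DC array. The median signal of the 46 genes was 3.35 and 3.30 in 6G- BM-MDSC, 3.29 and 3.25 in MDSC (conv.), and 3.21 and 3.16 in DCs. This median had an SD of 0.0348 between replicate arrays. It placed 6G- BM-MDSC above MDSC (conv.), the reverse of the sums that follow. Summed over the 46 genes on the linear scale, as multiples of the 75th percentile, the signal was 601.3 to 614.6 in 6G- BM-MDSC, 626.1 to 636.9 in MDSC (conv.) and 593.1 to 624.0 in DCs. These sums overlapped between 6G- BM-MDSC and DCs, while those of MDSC (conv.) lay just above the others. The genes also varied little between replicates, with a median SD within groups of 0.0881 against 0.113 over all genes. The list was bright, at a median percentile of 80.75 of the genes tested. All genes are thus not a background matched in signal, here or in the comparisons below.

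In 6G- BM-MDSC 7 of the 46 genes were higher than in DCs, which is 15.2%, where 15.0% of all genes tested were higher. A further 2 genes were lower, which is 4.35%, where 17.8% of all genes were lower. In MDSC (conv.) 8 of the 46 were higher than in DCs, or 17.4%, against 13.4% of all genes, and 1 was lower, or 2.17%, against 15.8%. The share of the list that was higher was therefore near the background, and the share that was lower was below it, which is given as a description without a test. None of the 46 differed from DCs by 2-fold or more in either group, while 11.3% and 10.4% of all genes differed by that much in 6G- BM-MDSC and in MDSC (conv.). The median absolute difference of the list was 0.159 in 6G- BM-MDSC and 0.185 in MDSC (conv.), against 0.29 and 0.268 over all genes. The signed median was 0.11 in 6G- BM-MDSC and 0.18 in MDSC (conv.), against -0.04 and -0.03 over all genes. Signs were positive for 32 of 46 genes in 6G- BM-MDSC and for 36 in MDSC (conv.), that is 69.6% and 78.3% of the list against 46.7% of all genes in each comparison.

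The intervals bounded most of these differences. For 44 of the 46 genes the 95% interval of the difference from DCs lay inside 2-fold in either direction, in 6G- BM-MDSC and in MDSC (conv.) alike, while this held for 73.2% and 75.2% of all genes. The exceptions in both comparisons were Cdc45, with intervals of 0.39 to 1.09 and 0.41 to 1.1, and Gins3, with intervals of -1.31 to 0.16 and -1.39 to 0.09. For 38 of the 46 the interval lay inside 1.5-fold in each comparison.

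**Figure D1:**
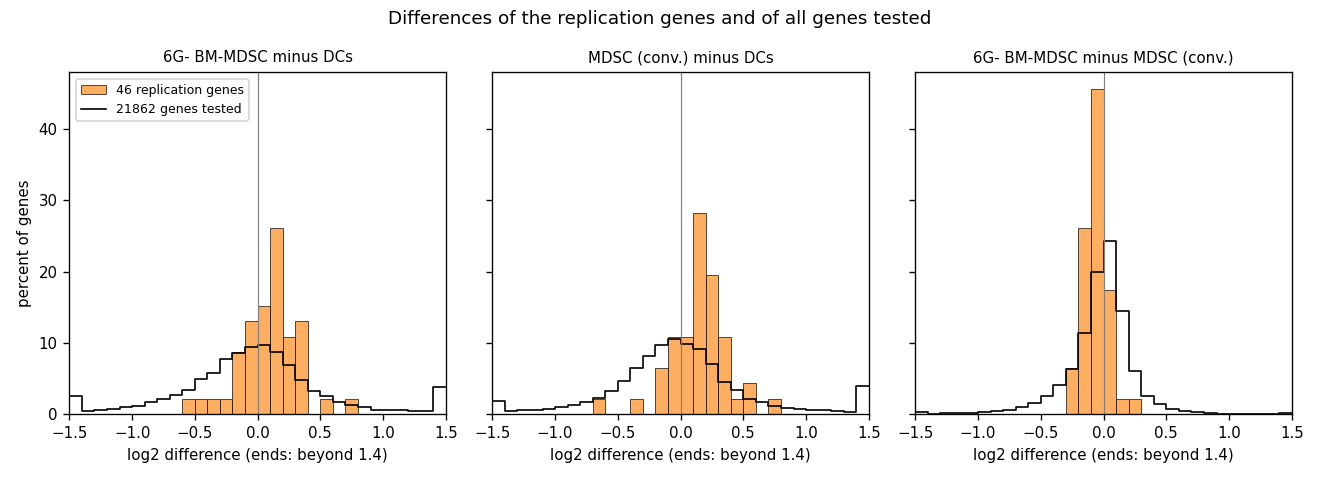
Distribution of the log2 difference (x axis, bins of 0.1, with all values beyond 1.4 in the end bins) as a percent of genes (y axis) for the 46 replication genes (bars) and all 21862 genes tested (line) in the 3 comparisons. The bars of the list lie within -0.65 and 0.75 in both comparisons with DCs, with medians of 0.11 and 0.18, and the line has genes in the end bins on either side.

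Licensing genes, which prepare origins for firing, held 3 calls in 6G- BM-MDSC and 4 in MDSC (conv.) out of 10, all of them higher than in DCs, where 15.0% and 13.4% of all genes were higher, and no test of the group was made. Mcm5, a subunit of the MCM helicase ring, had 3.92 and 3.98 in 6G- BM-MDSC, 3.91 and 3.87 in MDSC (conv.), and 3.53 and 3.33 in DCs. All 4 MDSC arrays lay above both DC arrays. The difference from DCs was 0.52 (SE 0.09, limma adjusted p = 0.0158) in 6G- BM-MDSC and 0.46 (SE 0.09, adjusted p = 0.0233) in MDSC (conv.). Cdt1, which brings the helicase to origins, had 4.07 and 4.03 in 6G- BM-MDSC, 4.07 and 3.99 in MDSC (conv.), and 3.74 and 3.68 in DCs. Orc6, the smallest subunit of the origin recognition complex, had 3.45 and 3.43 in 6G- BM-MDSC, 3.41 and 3.49 in MDSC (conv.), and 3.17 and 3.08 in DCs. Neither gene overlapped between MDSC and DC arrays. Cdt1 was higher than in DCs by 0.34 (SE 0.07, limma adjusted p = 0.0267) in 6G- BM-MDSC and by 0.32 (SE 0.07, adjusted p = 0.0348) in MDSC (conv.), and Orc6 by 0.31 (SE 0.08, adjusted p = 0.0355) and 0.32 (SE 0.08, adjusted p = 0.0346). Orc1, the ATPase subunit of the same complex, had -0.51 and -0.38 in 6G- BM-MDSC, -0.29 and -0.27 in MDSC (conv.), and -0.70 and -0.94 in DCs. Its groups were all apart, and it passed the test in MDSC (conv.), at 0.54 (SE 0.11, limma adjusted p = 0.0232), while in 6G- BM-MDSC it was at 0.37 (SE 0.11, adjusted p = 0.0557).

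The 6 subunits of the MCM ring did not lie at the same difference. Besides Mcm5, the differences were 0.27 and 0.30 for Mcm2, 0.16 and 0.22 for Mcm4 and 0.11 and 0.15 for Mcm6, with 6G- BM-MDSC given before MDSC (conv.), and all 4 MDSC arrays lay above both DC arrays for each of them. None of these passed the test, with adjusted p-values of 0.0563 to 0.329. Mcm3, at -0.10 and 0.00, and Mcm7, at -0.09 and 0.05, overlapped between MDSC and DC arrays. Whether Mcm5 differed from the other subunits was not tested. Cdc6, the loader of the ring, was at 0.13 and 0.23, with adjusted p-values of 0.462 and 0.223.

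Among the helicase activation genes Cdc45 had the highest difference of all 46 genes in both comparisons. Cdc45, which joins the MCM ring to make it an active helicase, had -0.05 and -0.04 in 6G- BM-MDSC, -0.10 and 0.04 in MDSC (conv.), and -0.61 and -0.95 in DCs. The 4 MDSC arrays lay close together and above both DC arrays, which were further apart. The difference was 0.74 (SE 0.13, limma adjusted p = 0.0161) in 6G- BM-MDSC and 0.75 (SE 0.13, adjusted p = 0.0162) in MDSC (conv.), or 1.67- and 1.69-fold. Its other tested probe gave 0.67 and 0.70. The probe that stands for the gene lies on chromosome 16, on the minus strand, between 18793399 and 18794880 of the mm9 build, a span longer than the probe itself.

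GINS, the other partner of the active helicase, has 4 subunits, and these spread widely. Gins1 had 1.87 and 1.87 in 6G- BM-MDSC, 2.05 and 1.87 in MDSC (conv.), and 1.65 and 1.51 in DCs. It was higher in MDSC (conv.) by 0.38 (SE 0.10, limma adjusted p = 0.0445), and at 0.29 (SE 0.10, adjusted p = 0.0808) in 6G- BM-MDSC. Gins2, at 0.16 and 0.20, and Gins4, at 0.00 and 0.01, did not pass. Gins3 lay at the other end of the list, with 4.28 and 3.96 in 6G- BM-MDSC, 4.45 and 3.64 in MDSC (conv.), and 4.75 and 4.64 in DCs. All 4 MDSC arrays were below both DC arrays, but the 2 MDSC (conv.) arrays lay far apart, and with a within-group SD of 0.357 it was the most variable gene of the list. Its differences of -0.58 (SE 0.29, limma adjusted p = 0.179) in 6G- BM-MDSC and -0.65 (SE 0.29, adjusted p = 0.153) in MDSC (conv.) did not pass. Without MDSC (conv.) replicate 1, the difference in MDSC (conv.) was -1.05, which rests on replicate 2 alone, at 3.64. Replicate 1, at 4.45, lay nearer to the DC arrays, so the size of the difference depends on which array is kept. Mcm10, which stabilises the helicase at the origin, was at 0.13 and 0.18.

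**Figure D2:**
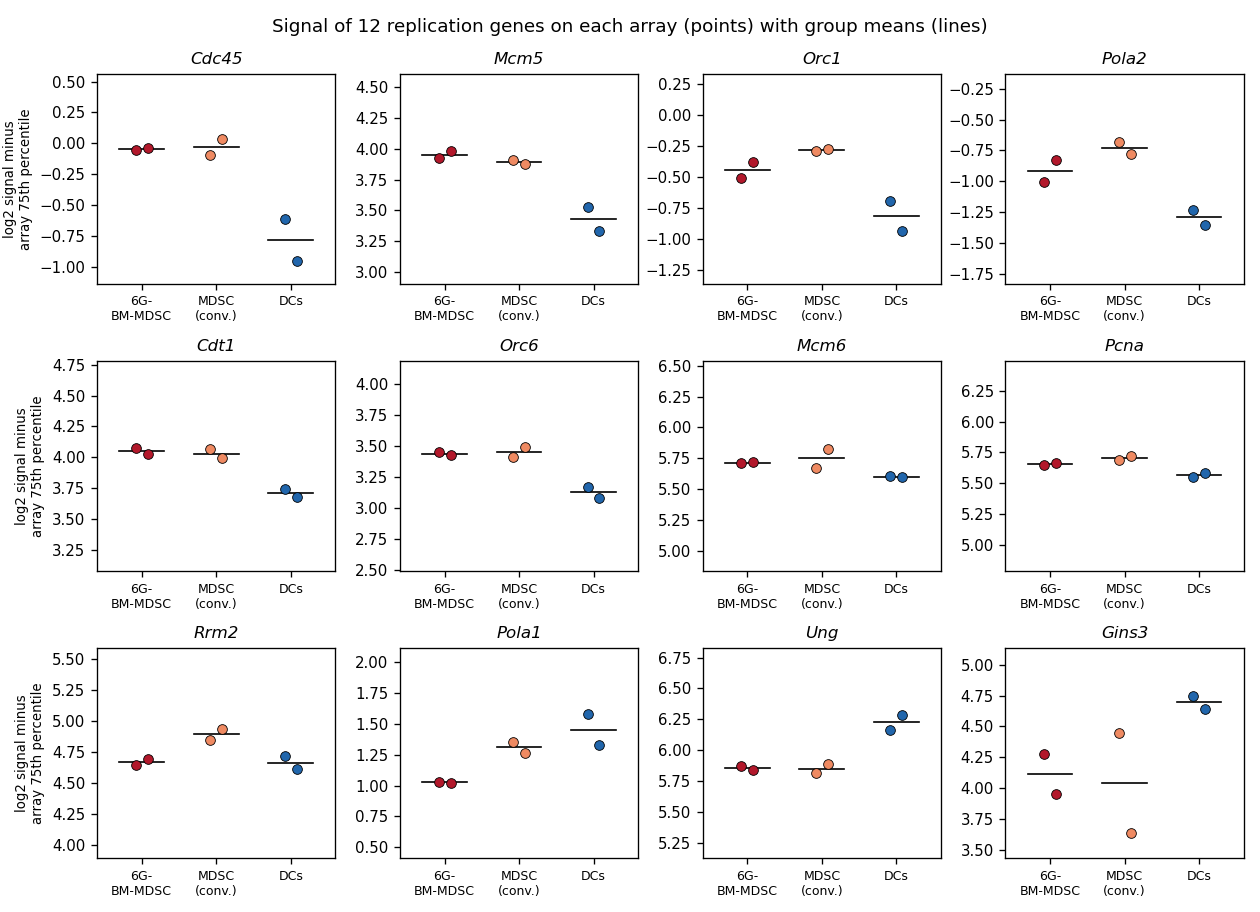
Signal of 12 replication genes (y axis, log2 signal relative to each array's 75th percentile, the same span in every panel) on the 2 arrays of 6G- BM-MDSC, MDSC (conv.) and DCs (points), with the group mean (line). Cdc45, Mcm5, Cdt1, Orc6, Orc1 and Pola2 lie higher on all 4 MDSC arrays than on both DC arrays, and Ung and Gins3 lie lower. Mcm6 and Pcna also lie higher on all 4, with differences from DCs of at most 0.15.

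Polymerase alpha, which starts each new strand, had a call in each direction in 6G- BM-MDSC, but neither was stable. Of 21 alternatives, Pola2 was called higher there in 7 and Pola1 lower in 10, and the Pola2 call was lost with the mean of its probes, with no filter on dim probes, with only the arrays compared and with the replicate number as a block. Pola2, its accessory subunit, had -1.01 and -0.83 in 6G- BM-MDSC, -0.68 and -0.78 in MDSC (conv.), and -1.23 and -1.35 in DCs. The groups did not overlap, and the difference from DCs was 0.37 (SE 0.10, limma adjusted p = 0.046) in 6G- BM-MDSC and 0.56 (SE 0.10, adjusted p = 0.0167) in MDSC (conv.). Prim1, the catalytic primase subunit, had 3.15 and 3.12 in 6G- BM-MDSC, 3.08 and 3.12 in MDSC (conv.), and 2.86 and 2.88 in DCs. It passed in 6G- BM-MDSC at 0.26 (SE 0.07, limma adjusted p = 0.0413) and was at 0.23 (SE 0.07, adjusted p = 0.0616) in MDSC (conv.). Pola1, the catalytic polymerase subunit, had 1.03 and 1.02 in 6G- BM-MDSC, 1.35 and 1.26 in MDSC (conv.), and 1.58 and 1.32 in DCs. Only the 6G- BM-MDSC arrays lay apart from the DC arrays, and Pola1 was lower there, at -0.42 (SE 0.11, limma adjusted p = 0.0393), and at -0.14 (SE 0.11, adjusted p = 0.363) in MDSC (conv.). The second probe of Pola1 had -0.89 and -0.56. The 4 probes of Pola2 ranged between -0.65 and 0.37 in 6G- BM-MDSC and between 0.04 and 0.56 in MDSC (conv.), with the -0.65 from a dim probe.

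The other polymerase genes did not pass in either comparison. Pole2, a subunit of the leading strand polymerase epsilon, had 0.69 and 0.25 in 6G- BM-MDSC, 0.46 and 0.74 in MDSC (conv.), and 0.34 and 0.22 in DCs, and its MDSC arrays overlapped those of DCs. Pold1, the catalytic subunit of the lagging strand polymerase delta, had 3.38 and 3.19 in 6G- BM-MDSC, 3.31 and 3.24 in MDSC (conv.), and 3.46 and 3.36 in DCs. Its partner Pold2 had 2.71 and 2.61 in 6G- BM-MDSC, 2.65 and 2.71 in MDSC (conv.), and 2.84 and 2.66 in DCs. The differences were -0.13 and -0.14 for Pold1 and -0.09 and -0.07 for Pold2. Both MDSC (conv.) arrays lay below both DC arrays for Pold1, while its 6G- BM-MDSC arrays overlapped those of DCs. For Pold2 both MDSC groups overlapped DCs. Pole was at -0.01 and 0.02, and Prim2 at 0.11 and 0.18.

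At the clamp and its loader no gene of 5 passed. Pcna, the sliding clamp that serves as the routine marker of S phase, was at 0.09 (95% interval -0.09 to 0.26) in 6G- BM-MDSC and 0.14 (95% interval -0.04 to 0.31) in MDSC (conv.). Rfc2, a subunit of the clamp loader, had 4.21 and 4.18 in 6G- BM-MDSC, 4.07 and 4.16 in MDSC (conv.), and 4.04 and 3.96 in DCs. Rfc5 had 4.14 and 4.20 in 6G- BM-MDSC, 4.27 and 4.28 in MDSC (conv.), and 4.15 and 4.02 in DCs. Rfc3 had 2.11 and 1.91 in 6G- BM-MDSC, 2.14 and 2.11 in MDSC (conv.), and 2.22 and 2.17 in DCs. Rfc2 was thus above DCs on all MDSC arrays, as were Pcna and Rfc4, and Rfc3 was below on all of them. The differences were 0.20 and 0.11 for Rfc2 and -0.18 and -0.07 for Rfc3, with limma adjusted p-values of 0.115 to 0.618. The second tested probe of Rfc3 had the opposite sign, at 0.17 and 0.42. Rfc4 was at 0.10 and 0.16, and Rfc5 at 0.09 and 0.19.

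Of the 5 genes that join fragments or bind single strands, likewise, none passed. Rpa2, a subunit of the single-strand binding protein RPA, had 0.86 and 0.85 in 6G- BM-MDSC, 0.88 and 0.89 in MDSC (conv.), and 0.69 and 0.63 in DCs. Rpa1, its DNA binding subunit, had 4.64 and 4.63 in 6G- BM-MDSC, 4.64 and 4.73 in MDSC (conv.), and 4.88 and 4.80 in DCs. So Rpa2 lay above DCs and Rpa1 below DCs on every MDSC array. Rpa2 was at 0.20 (limma adjusted p = 0.0858) and 0.23 (adjusted p = 0.0681). Rpa1 was at -0.21 (limma adjusted p = 0.102) and -0.15 (adjusted p = 0.2). The second tested probe of Rpa1 had the opposite sign, at 0.14 and 0.10. Lig1, the replicative DNA ligase, had 3.79 and 3.72 in 6G- BM-MDSC, 3.82 and 3.80 in MDSC (conv.), and 3.79 and 3.70 in DCs, a difference of 0.01 and 0.07. Fen1, the flap endonuclease, had 4.75 and 4.77 in 6G- BM-MDSC, 4.92 and 5.0 in MDSC (conv.), and 4.97 and 4.76 in DCs. Its DC arrays spanned nearly the whole range of the MDSC arrays. Rpa3 was at -0.01 and -0.08.

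The nucleotide supply genes included 1 call that was higher and the only gene lower in both MDSC cultures. Tk1, the salvage thymidine kinase of S phase, had 3.33 and 3.30 in 6G- BM-MDSC, 3.14 and 3.20 in MDSC (conv.), and 3.03 and 2.93 in DCs. It passed in 6G- BM-MDSC at 0.33 (SE 0.08, limma adjusted p = 0.0307) and was at 0.19 (SE 0.08, adjusted p = 0.13) in MDSC (conv.). The 4 tested probes of Tk1 ranged from -0.48 to 0.33 in 6G- BM-MDSC and from 0.08 to 0.23 in MDSC (conv.), with the -0.48 from a dim probe. Tyms, which makes thymidylate, had 4.01 and 3.85 in 6G- BM-MDSC, 3.98 and 3.99 in MDSC (conv.), and 3.75 and 3.65 in DCs, with differences of 0.23 (limma adjusted p = 0.116) and 0.28 (adjusted p = 0.0739). Rrm2, the S phase subunit of ribonucleotide reductase, had 4.65 and 4.69 in 6G- BM-MDSC, 4.85 and 4.93 in MDSC (conv.), and 4.71 and 4.61 in DCs, with differences of 0.01 (limma adjusted p = 0.967) and 0.23 (adjusted p = 0.0927). Rrm1, the large subunit, was at 0.06 and 0.17. Ung, the glycosylase that removes uracil from new DNA, had 5.87 and 5.84 in 6G- BM-MDSC, 5.81 and 5.89 in MDSC (conv.), and 6.17 and 6.29 in DCs. All MDSC arrays lay below both DC arrays, and Ung was lower by the test in both groups, at -0.37 (SE 0.08, limma adjusted p = 0.0257) in 6G- BM-MDSC and -0.38 (SE 0.08, adjusted p = 0.0265) in MDSC (conv.), about 0.77-fold.

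The 4 genes that rebuild chromatin and methylation behind the fork were positive in both comparisons. Chaf1b, a subunit of the histone chaperone CAF-1, had 3.81 and 3.64 in 6G- BM-MDSC, 3.80 and 3.80 in MDSC (conv.), and 3.49 and 3.37 in DCs. It was higher in MDSC (conv.), at 0.37 (SE 0.09, limma adjusted p = 0.0413), and at 0.30 (SE 0.09, adjusted p = 0.0682) in 6G- BM-MDSC. Uhrf1, which guides the maintenance methyltransferase to copied DNA, had 3.90 and 4.15 in 6G- BM-MDSC, 4.14 and 4.11 in MDSC (conv.), and 3.97 and 3.82 in DCs, and overlapped between the groups. That methyltransferase, Dnmt1, was at 0.05 and 0.18, and Chaf1a, the large CAF-1 subunit, at 0.11 and 0.23.

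The G1/S control genes did not pass. E2f1, the activator of many genes of this list, had 2.09 and 2.11 in 6G- BM-MDSC, 2.10 and 2.11 in MDSC (conv.), and 2.05 and 1.91 in DCs, at 0.12 in each group with limma adjusted p-values of 0.303 and 0.306. Ccne1, or cyclin E1, had 3.70 and 3.69 in 6G- BM-MDSC, 3.97 and 3.76 in MDSC (conv.), and 3.98 and 3.79 in DCs. The 6G- BM-MDSC arrays were the lowest, at -0.19 (adjusted p = 0.244) from DCs. Ccne2, or cyclin E2, was dim on all arrays, with -4.39 and -4.07 in 6G- BM-MDSC, -4.59 and -4.31 in MDSC (conv.), and -4.52 and -4.59 in DCs. For a gene not well above background in DCs, each DC value was set to the lowest signal well above background on that array, the floor, if it was dimmer. The Ccne2 values of DCs were above that floor, so its ratios are estimates and not bounds. They were 1.26 in 6G- BM-MDSC (limma adjusted p = 0.152) and 1.08 in MDSC (conv.) (adjusted p = 0.625), and neither passed the test. The 95% intervals of the log2 difference, -0.06 to 0.72 and -0.28 to 0.49, held 0.

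**Figure D3:**
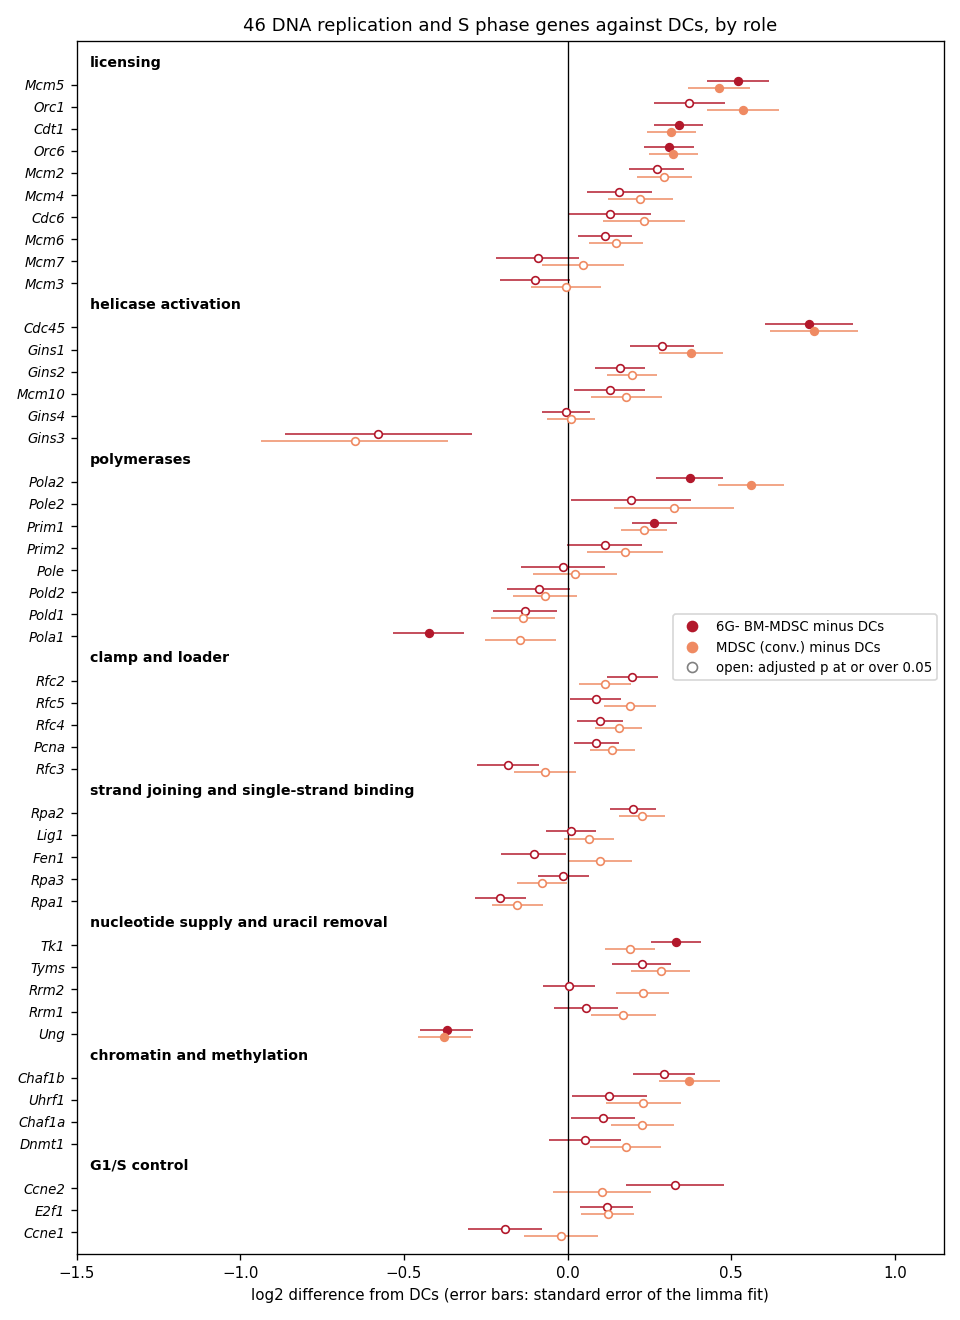
Log2 difference from DCs (x axis) of the 46 genes, grouped by role (y axis), for 6G- BM-MDSC and MDSC (conv.), with the SE of the limma fit as error bars and filled points where the adjusted p was under 0.05. Most points lie between 0 and 0.4, with Cdc45 at 0.74 and 0.75 on the right, and Gins3, Ung and, in 6G- BM-MDSC, Pola1 on the left.

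All 4 MDSC arrays lay above both DC arrays for 21 of the 46 genes, where 26.6% of all genes tested did so, and below both for 4, namely Gins3, Rfc3, Rpa1 and Ung, where 31.6% of all genes did so. By the test, Mcm5, Cdt1, Orc6, Cdc45 and Pola2 were called higher and Ung lower in both comparisons, which use the same DC arrays. The calls depended on which arrays entered the fit. With only the arrays of the groups compared, limma called Cdt1, Mcm5 and Cdc45 higher and Ung lower in 6G- BM-MDSC. Over all genes, 12.6% were higher and 14.8% lower in that fit. In MDSC (conv.) this setting called Orc1, Mcm5, Cdc45, Pola2 and Chaf1b higher and none lower, against 11.3% and 13.7% of all genes. A fit that leaves out 1 array has 1 array in a group and less precision, so its calls are not given. With 1 array left out, the median difference of the list from DCs was 0.048 to 0.187 in 6G- BM-MDSC and 0.115 to 0.236 in MDSC (conv.).

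Between 6G- BM-MDSC and MDSC (conv.), which differ in the removal of Ly-6G+ cells from the starting BM, no replication gene passed the test. Limma called 0 higher and 0 lower, where 0.00457% and 0.00915% of all genes were called. At an unadjusted p under 0.05 limma gave 0 higher and 2 lower, Pola1 and Rrm2, against 4.18% and 6.61% of all genes. The methods' t-test, unadjusted, gave 0 higher and 3 lower, namely Pola1, Fen1 and Rrm2, against 3.86% and 4.3% of all genes. For all 46 genes the 95% interval of the difference lay inside 2-fold, and for 43 inside 1.5-fold, against 88.1% and 68.3% of all genes. The median difference was -0.05, against 0.00 over all genes, and 36 of the 46 signs were negative, 78.3% of the list against 49.1% of all genes. The lowest were Pola1 at -0.28 (SE 0.11, limma adjusted p = 0.462), Rrm2 at -0.22 (SE 0.08, adjusted p = 0.433), Fen1 at -0.20 (SE 0.10, adjusted p = 0.537) and Pola2 at -0.19 (SE 0.10, adjusted p = 0.566). The highest were Ccne2 at 0.22 (SE 0.15, adjusted p = 0.635), Tk1 at 0.14 (SE 0.08, adjusted p = 0.571), Rfc2 at 0.08 (SE 0.08, adjusted p = 0.736) and Gins3 at 0.07 (SE 0.29, adjusted p = 0.946). Both 6G- BM-MDSC arrays lay below both MDSC (conv.) arrays for 17 of the 46 genes, against 21.8% of all genes, and above them for 4, namely Mcm5, Rfc2, Rpa3 and Tk1, against 22.4%. Neutrophil progenitor markers were negative in 8 of 8 (median -0.35). Their summed level was 377.4 to 381.2 in 6G- BM-MDSC and 457.8 to 475.7 in MDSC (conv.), as multiples of the 75th percentile. Also negative were 9 of 10 mature neutrophil markers, 5 of 5 lymphocyte markers tested and 12 of 15 genes of G2 and mitosis. Megakaryocyte markers were positive in 4 of 4 and dendritic cell markers in 7 of 11. None of these genes was called, and the part of any of these lists in the result was not tested.

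A gene was represented by its brightest probe, and other probes of the same gene did not always give the same sign. The list had 83 probes, of which 80 were tested. Of the 24 genes with more than 1 tested probe, the probes disagreed in the sign of a difference from DCs in 13. These 13 included Tk1, Pola2, Mcm3, Mcm7 and Rfc5. The negative values of Tk1 and Pola2, in 6G- BM-MDSC, came from dim probes that were well above background on 4 and 5 arrays. That probe of Pola2 was at -6.05 on 6G- BM-MDSC replicate 2, below the lowest signal well above background there, -5.45. They also included Rfc3 and Rpa1, whose brightest probes lay below DCs on all MDSC arrays. Cdc45, Orc1, Gins1 and Pola1 kept one sign over all their tested probes, at 0.67 to 0.75 for Cdc45, 0.37 to 0.66 for Orc1, 0.29 to 0.59 for Gins1 and -0.89 to -0.14 for Pola1. Mcm5, Orc6, Cdt1, Ung and Gins3 were not among these genes, so no other tested probe was there to compare.

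Letters known as E2F sites were looked for in the promoters of the list. RefSeq promoter windows of the GRCm38.p6 build, with 250 bases before and 50 after a transcript start, were matched by symbol for 38 of the 46 genes, in 46 windows. The letters TTTCCCGC, TTTGGCGC, TTTCGCGC and TTTGCCGC were searched on both strands. At least 1 match was found in 15 of the 38 genes, or 39.5%, and in 32.6% of their windows, against 2.26% of all 32851 windows of the same length. Of the genes with a match before the start of their window's transcript, 4 had a match before every annotated start of the gene and are printed. Only bases before every annotated start are shown, with up to 30 on each side of the matches. They are read on the gene's strand, with the matches in capitals. Cdc6, Orc1, Pola1, Mcm7, Dnmt1 and Uhrf1 had a match before their window's start but not before every annotated start, and are not printed. Gins3 was the lowest gene of the list against DCs, Mcm5 was called higher, and Mcm6 and Rfc3 did not pass.
Gins3, chr8:95633488-95633555, plus strand: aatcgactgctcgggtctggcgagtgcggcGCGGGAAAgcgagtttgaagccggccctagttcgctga
Mcm5, chr8:75109326-75109397, plus strand: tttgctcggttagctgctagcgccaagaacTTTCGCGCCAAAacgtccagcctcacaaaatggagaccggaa
Mcm6, chr1:128359715-128359845, minus strand: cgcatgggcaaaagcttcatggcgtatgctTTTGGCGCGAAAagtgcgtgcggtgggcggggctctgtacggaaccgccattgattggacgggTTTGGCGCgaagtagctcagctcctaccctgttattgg
Rfc3, chr5:151651209-151651248, minus strand: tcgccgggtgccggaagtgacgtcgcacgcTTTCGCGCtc

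In Mcm5 the capitals hold 2 overlapping matches, one on each strand, and in Mcm6 the first run of capitals does so too, with a further match nearer to the start. Genes with and without a match had similar differences from DCs, which is a description without a test. The 15 genes with a match had a median difference of 0.05 in 6G- BM-MDSC and 0.15 in MDSC (conv.), and the 23 genes with a window and no match, Cdc45 among them, had 0.11 and 0.19. The CHR letters TTTGAA, a site known from genes of mitosis, were in 13% of the windows of the list, against 17.9% of all windows and 64.3% of the windows of the G2 and mitosis genes described next. A match is a stretch of letters and not a measured binding site.

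Genes of replication outside the list gave medians near those of the 46. Of 44 further replication genes, 8 were higher and 2 lower in 6G- BM-MDSC and 10 higher and 2 lower in MDSC (conv.), with medians of 0.18 and 0.22. For this and the next lists, the shares of all genes to read the counts against are 15.0% higher and 17.8% lower in 6G- BM-MDSC, and 13.4% higher and 15.8% lower in MDSC (conv.). Shmt1, a cytosolic folate enzyme that feeds thymidylate synthesis, had -0.82 and -0.58 in 6G- BM-MDSC, -0.59 and -0.61 in MDSC (conv.), and -1.83 and -1.97 in DCs, and was higher by 1.20 (SE 0.11, limma adjusted p = 0.00254) and 1.30 (SE 0.11, adjusted p = 0.00208). Mcm9, of the repair helicase that resembles the MCM ring, was at 0.91 (adjusted p = 0.101) and 0.69 (adjusted p = 0.19), with the DC arrays at -0.84 and -1.89. Dna2, a nuclease that trims long flaps, was lower at -0.54 (limma adjusted p = 0.0144) and -0.37 (adjusted p = 0.043). Among 20 S phase checkpoint and repair genes 6G- BM-MDSC had 1 higher and 1 lower, and MDSC (conv.) 3 higher and 1 lower. Fancb, of the Fanconi anaemia core complex, was higher at 0.37 and 0.46.

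Some regulators that act above S phase entry differed from DCs by more than any of the 46 genes. Of 17 CDK inhibitors and genes of cell cycle exit, 6 were lower in each MDSC group, while 6G- BM-MDSC had 2 higher and MDSC (conv.) 3, with medians of -0.26 and -0.24. Cdkn2a, which encodes inhibitors that guard RB and p53, had -2.53 and -2.37 in 6G- BM-MDSC, -2.45 and -3.05 in MDSC (conv.), and -0.74 and -1.08 in DCs. It was lower by the test, at -1.54 (SE 0.23, limma adjusted p = 0.00953) in 6G- BM-MDSC and -1.84 (SE 0.23, adjusted p = 0.00623) in MDSC (conv.). Also lower were Cdkn2c at -0.85 and -0.84, Cdkn2b at -0.61 and -1.06 and Cdkn1a at -0.47 and -0.49, all inhibitors of cyclin-dependent kinases. Cdkn2d, of the same inhibitor family, went the other way, at 0.21 (limma adjusted p = 0.105) in 6G- BM-MDSC and higher by 0.37 (adjusted p = 0.0283) in MDSC (conv.). Gadd45a, a growth arrest gene induced by DNA damage, was higher at 0.53 and 0.42, and its relative Gadd45b was lower at -0.35 and -0.33, as was Btg1, an antiproliferative gene, at -0.41 and -0.40. Mxd1, a partner of MAX that opposes MYC and is known from maturing neutrophils, was higher at 0.78 (SE 0.12, limma adjusted p = 0.00952) and 1.06 (SE 0.12, adjusted p = 0.0044). The list thus held calls in both directions, also among the inhibitors themselves.

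The list of 29 E2F, RB and G1/S regulators held 7 genes higher and 4 lower in 6G- BM-MDSC, and in MDSC (conv.) 8 higher and 6 lower. Myb, a factor of dividing blood progenitors, had 2.24 and 2.11 in 6G- BM-MDSC, 2.51 and 2.54 in MDSC (conv.), and 0.88 and 0.48 in DCs, a difference of 1.5 (SE 0.15, limma adjusted p = 0.00306) and 1.85 (SE 0.15, adjusted p = 0.00179). Mycn, of the MYC family, was well above background on all MDSC arrays and on neither DC array, so it entered the test through the MDSC groups alone. Against the DC floor its ratio was at least 2.88 in 6G- BM-MDSC and at least 2.95 in MDSC (conv.). The limma adjusted p-values, 0.000671 and 0.000678, rest on DC values below that floor and do not test these bounds. Ccnd1, or cyclin D1, had 3.50 and 3.37 in 6G- BM-MDSC, 3.56 and 3.50 in MDSC (conv.), and 4.78 and 4.65 in DCs, and was lower at -1.28 (SE 0.09, limma adjusted p = 0.00123) and -1.18 (SE 0.09, adjusted p = 0.00159). Members of 1 family moved in opposite directions here. E2f3, an activator E2F, was higher at 0.58 and 0.54, while E2f5, a repressor E2F, was lower at -0.43 (limma adjusted p = 0.0243) and -0.56 (adjusted p = 0.0129). Of the partners with which E2F factors bind DNA, Tfdp1 was higher at 0.72 and 0.68 and Tfdp2 lower at -0.83 (limma adjusted p = 0.00876) and -0.58 (adjusted p = 0.0254). Rb1, the pocket protein that holds E2F in check, had 3.00 and 3.11 in 6G- BM-MDSC, 2.75 and 2.88 in MDSC (conv.), and 2.68 and 2.83 in DCs. Its 6G- BM-MDSC arrays were the highest, at 0.30 (SE 0.10, limma adjusted p = 0.0724) from DCs and 0.24 (SE 0.10, adjusted p = 0.479) from MDSC (conv.), and MDSC (conv.) was at 0.06 (adjusted p = 0.66) from DCs. E2f4 was at -4.48 on 6G- BM-MDSC replicate 2 and between -1.03 and -0.57 on the other 5 arrays.

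Genes of G2 and mitosis, which run after replication is complete, gave 4 of 15 higher and 0 lower in 6G- BM-MDSC and 3 higher and 0 lower in MDSC (conv.) by limma, with medians of 0.09 and 0.18. Kif11, a spindle motor, was higher in 6G- BM-MDSC at 0.75 (SE 0.11, adjusted p = 0.00863) and at 0.34 (SE 0.11, adjusted p = 0.0742) in MDSC (conv.). Mki67, the proliferation antigen, had 5.44 and 5.42 in 6G- BM-MDSC, 5.47 and 5.52 in MDSC (conv.), and 5.17 and 4.87 in DCs, at 0.41 (adjusted p = 0.0499) and 0.48 (adjusted p = 0.037) in the limma fit. Ccnb2, or cyclin B2, was at -0.22 and -0.16 and did not pass.

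**Figure D4:**
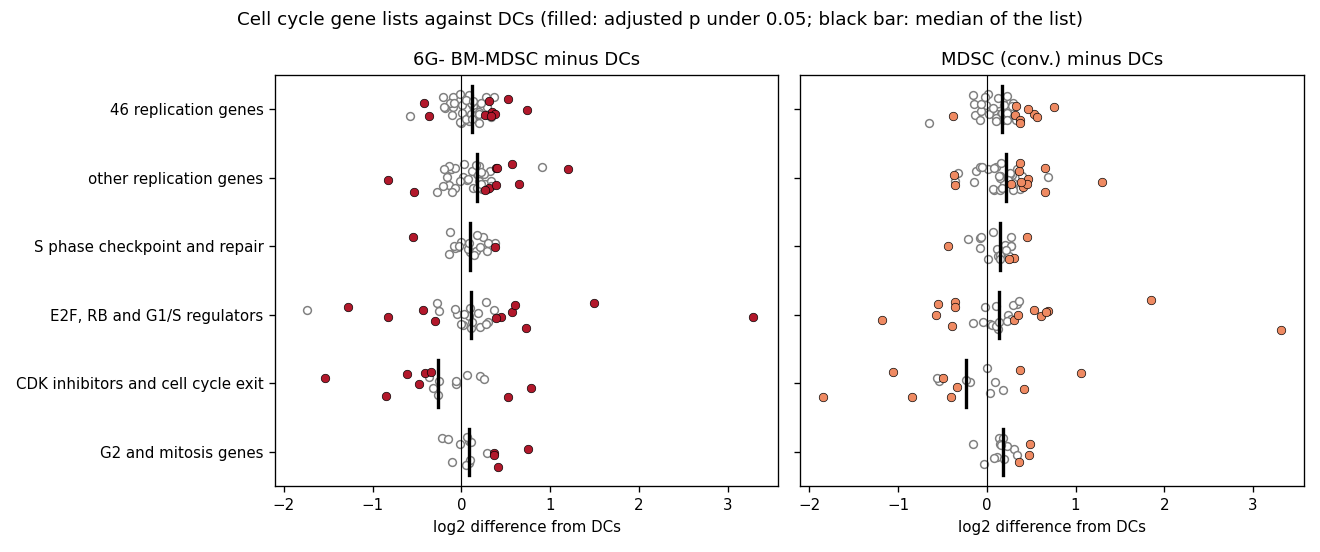
Log2 difference from DCs (x axis) of the genes of 6 cell cycle lists (y axis) in 6G- BM-MDSC and MDSC (conv.), with filled points where the limma adjusted p was under 0.05 and a black bar at the median of each list. The medians of the 46 replication genes, at 0.11 and 0.18, lie close to 0, and the CDK inhibitor list has medians of -0.26 and -0.24 with 6 genes lower in each group.

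Markers of the cell types in the cultures moved far more than the replication genes, and their part in these results was not tested. All 8 neutrophil progenitor markers, led by Mpo and Ctsg, were higher in each MDSC group than in DCs (medians 3.54 and 3.77), with a summed level of 377.4 to 381.2 in 6G- BM-MDSC, 457.8 to 475.7 in MDSC (conv.) and 30.97 to 31.86 in DCs. Of 10 mature neutrophil markers, led by Retnlg and Mmp9, 9 were higher in each, and of 6 monocyte markers, among them Ly6c2, 3 were higher in each and 1 was lower in MDSC (conv.). Of 11 dendritic cell markers, led by Ciita and Zbtb46, 9 were lower in 6G- BM-MDSC and 10 in MDSC (conv.), and Flt3 had the opposite sign, at 0.50 (limma adjusted p = 0.0155) and 0.20 (adjusted p = 0.164). The summed level of these markers was 891.5 to 962.0 in 6G- BM-MDSC, 928.5 to 941.7 in MDSC (conv.) and 1591 to 1631 in DCs. Of 7 macrophage markers, led by C1qa and C1qc, 5 were lower in each. Of the 7 markers that label MDSC, 6 were tested, and 6G- BM-MDSC had 5 of them higher and MDSC (conv.) 4, led by Ly6g and Ly6c2, while Arg1 was well above background on 1 DC array alone. All 6 basophil and mast cell markers, led by Mcpt8 and Prss34, and all 4 megakaryocyte markers, led by Ppbp and Gp1bb, were higher in each group. Among 4 tested erythroid markers of 8, led by Epor and Hba-a1, 6G- BM-MDSC had 3 higher and MDSC (conv.) 2, and Hbb-b1 and Alas2 were well above background on 0 arrays. Among 6 stem and progenitor markers 6G- BM-MDSC had 3 higher and MDSC (conv.) 2, with 2 lower in each, among them Cd34. Hlf is counted as higher in both, but it was well above background on neither DC array. It entered the test through the MDSC groups alone, and its calls rest on DC values below the floor. Against that floor its ratio was at least 2.2 in 6G- BM-MDSC and at least 2.7 in MDSC (conv.). Of 6 lymphocyte markers 5 were tested, among them Ms4a1, and 2 were higher and 1 lower in each group.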

How the data were processed

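Per the labels and the file headers, the authors scanned 6 1-colour Agilent mouse arrays and made processed intensities with Agilent Feature Extraction (10.7.3.1 in the headers, 10.5.1.1 in the submitters' processing notes). The deposited values are linear intensities with background subtracted and spatial trends removed, without scaling between arrays, which could leave array-wide shifts in place. The deposited value table held the same values, rounded.

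In R 4.3.3, control probes and the 103 to 146 spots per array marked as non-uniform or outliers were left out, spots of 1 probe were averaged, and log2 intensity minus the 75th percentile of the array was taken. A probe was tested if well above background on both arrays of at least 1 group (33484 of 56605 probes). Symbols were updated through RefSeq accessions, which matched for 58.3% of probes, and a gene took its brightest probe. Limma 3.58.1 was fitted once over the 3 groups, with group alone in the model, and p-values were adjusted by Benjamini-Hochberg. Probe positions are those of the array design (mm9).

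Differences are given as 6G- BM-MDSC minus DCs, MDSC (conv.) minus DCs and 6G- BM-MDSC minus MDSC (conv.). The 46 genes, the other lists and the tests were chosen with earlier results of these data known. Values on every array are given for the 2 genes of each of 8 roles with the highest mean difference from DCs, the 8 lowest that did not pass or were lower, and the 4 highest and 4 lowest between the MDSC groups. Orc6, Cdt1 and Prim1 were added because they were called. In the other lists the 2 genes with the largest mean difference, the largest of opposite sign in lists of 10 or more, and Rb1 are named, and further genes named there were chosen after their values were seen. Some genes that this rule names are not reported here. The fit was tested on simulated data. Alternatives changed the background correction, scaling, filter, probes, arrays, variance prior, test and threshold.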

Additional observations from a re-analysis of the deposited data

How the results depend on the processing

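Counts of the 46 genes called higher (7 in 6G- BM-MDSC and 8 in MDSC (conv.) against DCs) and lower (2 and 1) stayed within 1.5 times under quantile normalization, normexp background correction, scaling by the median of detected probes, a stricter filter, averaging all probes of a gene, keeping marked spots and starting from the deposited value table. Without a filter on dim probes, 1 gene was lower in 6G- BM-MDSC, against 23.4% of all genes, with more genes tested. With only the arrays of the groups compared, which leaves fewer arrays, 3 were higher and 1 lower in 6G- BM-MDSC. The shares of all genes there were 12.6% and 14.8%. In MDSC (conv.) 5 were higher and 0 lower, against 11.3% and 13.7%. An intensity-dependent prior variance gave 11 and 13 higher, against 18% and 15.9% of all genes. The methods' t-test, unadjusted, gave 11 higher in 6G- BM-MDSC and 12 in MDSC (conv.), against 16.3% and 14.3%. It gave 3 lower between 6G- BM-MDSC and MDSC (conv.), against 4.3%. After Benjamini-Hochberg it gave 0 in every comparison, against at most 0.188% of all genes in either direction. An adjusted p under 0.01 gave 0 higher and 0 lower against DCs. There 6.56% of all genes were higher and 6.66% lower in 6G- BM-MDSC, and 6% and 5.66% in MDSC (conv.). A 2-fold minimum also gave 0 higher and 0 lower. The shares of all genes were then 5.36% and 4.58% in 6G- BM-MDSC and 5.33% and 3.77% in MDSC (conv.).

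With the replicate number as a block, 4 genes were higher in 6G- BM-MDSC, against 14.4% of all genes, and counts in MDSC (conv.) moved by less than 1.5 times. Deviations of same-numbered arrays correlated at 0.114, 0.0416 and 0.125 over the 3 pairs of groups. With 2 arrays a group, such weak correlations cannot settle whether same-numbered samples were paired, and the labels do not say.

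Leaving out 1 array at a time leaves 1 array in a group and less precision, so counts of calls from these fits are not given. The median difference from DCs then ranged between 0.048 and 0.187 in 6G- BM-MDSC and between 0.115 and 0.236 in MDSC (conv.). For 6G- BM-MDSC minus MDSC (conv.) the median ranged between -0.0751 and -0.0212. Cdc45 was called higher in 6G- BM-MDSC under 16 of 21 alternatives and in MDSC (conv.) under 15, and Mcm5 under 15 in each. Of the 21 alternatives, 6 leave out an array, and they are not independent. For a comparison with DCs, leaving out either array of the other MDSC group gives the same fit as using only the arrays compared. The counts for the other calls were as follows. In 6G- BM-MDSC these were Ung (14), Cdt1 (13), Orc6, Pola1 and Prim1 (10 each), Tk1 (9) and Pola2 (7), and in MDSC (conv.) Orc1 (15), Chaf1b (14), Pola2 (13), Ung (11), Orc6 and Cdt1 (10 each) and Gins1 (9).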
